A study of Mus musculus with 14 samples.

Results

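Glut_11 is a cluster of glutamatergic neuron nuclei that the study's authors labelled in mouse brain, and its genes place it in the deep layers of the cerebral cortex. Its members were all nuclei with that label in the authors' deposited annotation, 1033 of the 31324 brain nuclei and of the 109000 nuclei of the brain and retina libraries together. The study asked what endothelial loss of the TGF-beta receptor gene Tgfbr1 does to blood vessels of the retina and brain. The brain libraries were made from nuclei of vascular fragments enriched by centrifugation through Ficoll, and neurons came along with the vessels. There were 2 brain libraries, 1 for each genotype. The CKO library came from Cdh5CreER;Tgfbr1CKO/- mice, which carry a conditional and a null Tgfbr1 allele and a tamoxifen-inducible Cre driven by an endothelial promoter. The control library came from mice labelled wild type, which the paper calls controls or phenotypically wild type. For retinas the paper gives the typical control as Cdh5CreER;Tgfbr1CKO/+ or the like for Tgfbr2. It gives no exact genotype for the brain control, so these mice may carry Cre and a conditional allele. By the series description, 4-hydroxytamoxifen (4HT) was given from postnatal day 3 to day 5. The methods put brain collection at postnatal day 14, whereas the labels call the mice young adults and the tissue brain endothelial cells. Tissue from 2 brains was pooled per library. Because the null allele is present in every cell of the CKO mice and Cre acts in endothelial cells, a difference in neurons cannot be assigned to either.

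Of the Glut_11 nuclei, 470 came from the control library and 563 from the CKO library. They were 2.82% of 16649 control nuclei (95% exact binomial interval 2.58 to 3.09) and 3.84% of 14675 CKO nuclei (3.53 to 4.16). These intervals, and all others given here, cover counting error only. Each genotype had a single library, hence no replicate and no test, so genes are named by the size of their difference. Where values come as a pair, the control value is given before the CKO value. The Ficoll step and the share of vessels in a preparation can set the share of neurons. No cell barcode was shared between the libraries within Glut_11.

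The libraries stood apart in depth and in sex-linked RNA, and both bear on every comparison of genotypes. The median Glut_11 nucleus held 4669 unique molecular identifiers (UMIs, counted RNA molecules) among controls and 1804 among CKO nuclei, and the summed counts were 2261539 and 1233306 UMIs. The control neurons were also deeper in Glut_0 (medians of 5004 and 2314 UMIs) and Glut_17 (4117 and 1834). Xist, the RNA of the inactive X chromosome in females, had 3588 UMIs among control Glut_11 nuclei and 0 among CKO nuclei, at least 652-fold lower against a floor of 3 UMIs. Among control nuclei, 275 held Xist without RNA of the Y chromosome genes Ddx3y, Uty, Kdm5d and Eif2s3y, 90 held Y chromosome RNA without Xist, 55 held both and 50 held neither. Among CKO nuclei, 256 held Y chromosome RNA, 307 held neither, and none held Xist. The control Glut_11 nuclei were therefore of both sexes, and among the CKO Glut_11 nuclei only male RNA was found. In Glut_0, 2 of 3102 CKO nuclei held Xist without Y chromosome RNA and 4 held both.

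The cortex is layered, and its excitatory neurons differ in gene expression by where their axons go. Neurons of layer 6 that project to the thalamus (corticothalamic, CT) express the transcriptional regulators Tle4 and Foxp2. Layer 6b, the deepest sheet, holds neurons that persist from the early subplate and express Ccn2 and Cplx3. Near-projecting (NP) neurons of layers 5 and 6 express Tshz2, and intratelencephalic (IT) neurons of the upper layers express Cux2 and Rorb.

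Of the marker lists for brain regions and cortical layers, the layer 6 CT list had the most raised members in Glut_11. A gene was counted as raised when a UMI was found in at least 5% of Glut_11 nuclei and its counts scaled to a common library total (CPM) were at least 2-fold above the pooled other neuron clusters, each in both libraries. This held for 181 of 7939 genes with at least 20 UMIs in the cluster, 2.28%, and for 7 of the 8 layer 6 CT markers. The cluster is therefore called layer 6 CT-like. The authors had grouped the nuclei by their expression, so these ratios describe the cluster and are no test of it. Hs3st4, an enzyme that sulfates heparan sulfate, stood at 3158 CPM (3086 to 3233) and 3540.1 CPM (3436 to 3647), 8.16-fold and 8.18-fold above the other neurons. Tle4, a co-repressor of transcription, stood at 856 and 761 CPM, 9.75-fold and 10-fold above. Foxp2 stood at 728 and 807 CPM, and Syt6, a synaptotagmin, at 140 and 249 CPM. The remaining raised members were Zfpm2, a cofactor of GATA factors, at 1536 and 1555 CPM, Garnl3 at 1141 and 1463 CPM, and Sulf1, a heparan sulfate sulfatase, at 125 CPM in both. Rprm was not raised and had 18 and 6 UMIs. Several of these markers were also high in another cluster. Foxp2 reached 800 and 849 CPM in the striatal-type cluster GABA_9, Syt6 reached 178 and 181 CPM there, and Zfpm2 reached 3892 and 4338 CPM in Glut_5.

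**Figure D1:**
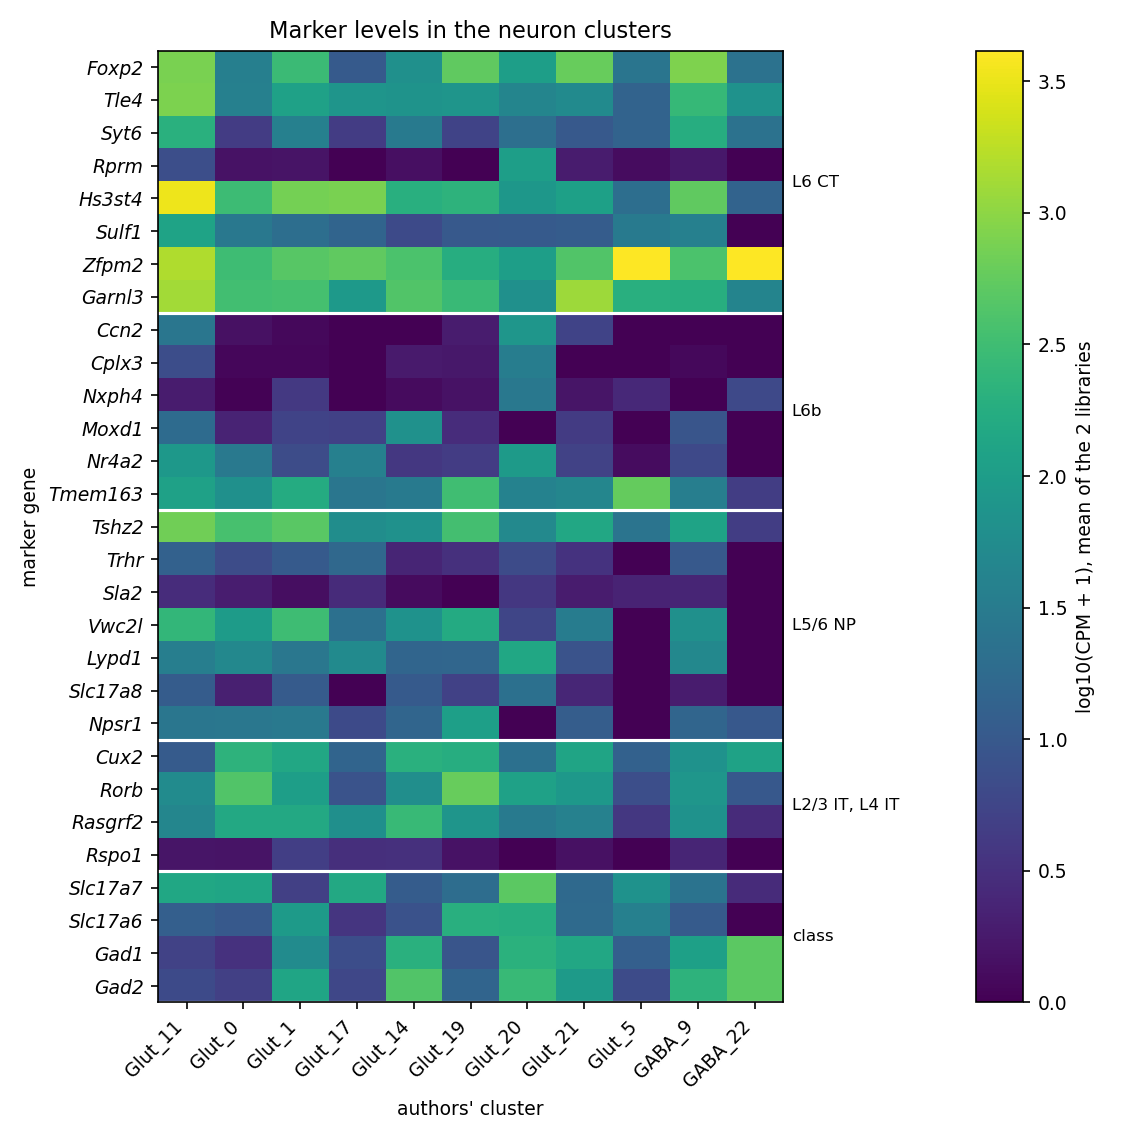
Levels of layer markers in the 11 neuron clusters, as log10(CPM + 1) averaged over the 2 libraries; rows are genes grouped by list and columns are the authors' clusters. Glut_11, the column at the left, holds the highest level of Tle4 and Hs3st4 among these clusters, while Foxp2 is also high in GABA_9 and Zfpm2 is highest in Glut_5 and GABA_22.

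Shares of nuclei with a UMI depend on depth, so nuclei were also thinned to 1000 UMIs each, which left out 55 control and 143 CKO nuclei. After thinning, Hs3st4 was found in 88.4% of control nuclei (85 to 91.3) and 92.6% of CKO nuclei (89.7 to 94.9), against 96.4% and 97.9% before. In Glut_19, a deeper cluster with thalamic markers and median depths of 6480.5 and 2718 UMIs, the thinned shares of Hs3st4 were 17.2% and 12.6%, against 35.8% and 26.2% before, and 20 and 74 nuclei were left out there. Tle4 was found in 57.3% and 54.5% of thinned Glut_11 nuclei and in 6.57% and 7.63% of thinned Glut_19 nuclei. Before thinning these shares were 84.5% and 69.6% in Glut_11 and 27.1% and 15.8% in Glut_19. Other clusters had higher thinned shares than Glut_19: for Hs3st4, 37.1% and 36.9% in GABA_9 and 33.8% and 30.4% in Glut_17, and for Tle4, 23.2% and 23.7% in GABA_9. The Glut_11 shares of both genes lay above all of these. Foxp2 is also a gene of thalamic neurons. Its thinned shares were 47.2% (42.3 to 52.2) and 50.2% (45.4 to 55.1) in Glut_11 against 32.8% and 37.4% in Glut_19. Before thinning they were 73.4% and 64.5% against 67.9% and 61.3%. In GABA_9 the thinned shares of Foxp2 were 40.8% (36.5 to 45.1) and 43.6% (38.9 to 48.4), with intervals that overlapped those of Glut_11.

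The transmitter genes fit the label glutamatergic. Slc17a7, the vesicular glutamate transporter of cortical neurons, stood at 130 and 152 CPM. Slc17a6, its counterpart in thalamus and brainstem, stood at 11.1 and 11.4 CPM. Gad2, an enzyme that makes GABA, stood at 9.29 and 1.62 CPM, against 210 and 223 CPM in GABA_9. All 5 glutamatergic markers reached 20 UMIs, and none was raised above the other neurons. Of 7 GABAergic markers 1 reached 20 UMIs, and of 12 markers of other transmitters none did. The thinned share of nuclei with Slc17a7 was 14% and 15.5% in Glut_11, and 38.9% and 27.5% before thinning. In thinned Glut_17 nuclei it was 12.7% and 20.6%. In thinned Glut_19 nuclei it was 3.03% among controls and 0 of 262 CKO nuclei, with an upper limit of 1.4%, and before thinning 17.4% and 1.79%.

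Markers of other layers and of the telencephalon in general were raised in part. Tbr1, a transcription factor of early-born deep-layer neurons, was 3.98-fold and 4.99-fold above the other neurons, at 47.8 and 54.3 CPM. Of 10 telencephalic excitatory markers it alone was raised. Bcl11a, a zinc finger transcription factor, stood at 560 and 635 CPM. Of 8 markers of layer 5 extratelencephalic (ET) neurons 3 were raised: Fezf2, a determinant of subcerebral projection neurons, Bcl11b and Crym. Fezf2 was at 31 and 25.9 CPM and Bcl11b at 192 and 264 CPM. The upper-layer genes were low. Cux2 stood at 5.75 and 13.8 CPM, against 186 and 249 CPM in Glut_0, a cluster with telencephalic genes. Rorb stood at 46 and 61.6 CPM, against 504 and 367 CPM in Glut_0. Raised members of further lists were Tshz2 of the NP list (627 and 740 CPM), Nr4a2 of the layer 6b and layer 6 IT lists (56.2 and 112 CPM) and Mpped1 of the hippocampal CA1 list (162 and 243 CPM). No marker of 12 for the thalamus, 13 for the hypothalamus, 12 for the midbrain or 13 for cerebellar granule cells was raised.

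Compared with the other Glut clusters pooled, 172 of 4027 genes with at least 100 UMIs in Glut_11 were at least 2-fold higher in both libraries, 4.27%. By the smaller of the libraries' ratios, Clic5, a chloride intracellular channel protein, led this comparison at 42.7-fold and 92.9-fold, from 35.8 and 54.3 CPM. Rai14, an actin-associated protein, followed at 31.8-fold and 58.6-fold, from 246 and 274 CPM. Col5a1, a fibrillar collagen chain, was 18-fold and 19.6-fold higher, and Arhgap25, which encodes a GTPase-activating protein, 13.4-fold and 26.2-fold. Some of the 15 leaders had a higher mean level over the libraries in a non-neuronal cluster than in Glut_11. They included Clic5 in ECs (184 against 45.1 CPM) and Rai14 in the cluster named glia (559 against 260 CPM). Ccn2, Col12a1 and Ptk7 were also higher in the cluster named glia. Gng12 was higher in oligodendrocytes (644 against 149 CPM), Efhd2 in pericytes (325 against 38.2 CPM) and Arhgap25 in microglia (288 against 57 CPM). By library, Efhd2 stood at 542 and 109 CPM in pericytes, and Arhgap25 at 576 and 0 CPM in microglia. The CKO library held only 22 pericyte and 11 microglia nuclei. Sla was highest in GABA_22, and the remaining leaders were highest in Glut_11. Gm43066 ranked between Col5a1 and Arhgap25, and Tle4, Syt6, Gng12, Hs3st4 and Ccn2 came next in this order. Ccn2, a matricellular protein and marker of layer 6b, was 27.9-fold and 8.32-fold higher, with 82 and 18 UMIs. Sla, Col12a1, the noncoding RNA 4930551E15Rik, Efhd2 and Ptk7 closed the 15 leading genes.

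Against all nuclei outside Glut_11, Hs3st4 led at 12.6-fold and 12.7-fold. On GRCm39 it lies at chr7:123582092-123998212 on the plus strand. 4930551E15Rik, next in the order at 11.5-fold and 12.7-fold, lies at chr7:123785889-123889493, within Hs3st4 and on the same strand. Gm43066, at 8.59-fold and 12.6-fold, lies in the same way within Syt6 (chr3:103482484-103552885). Counts from such nested genes cannot be told apart from intronic RNA of the host gene. Htr1f, a serotonin receptor, was 7.33-fold and 8.23-fold higher at 656 and 837 CPM. Grik3, a kainate receptor subunit, was 7.19-fold and 8.7-fold higher at 616 and 791 CPM. Ipcef1, Sdk2, an adhesion molecule that helps set synaptic lamination, Cwh43, Cdh24, Cdh18 and Tbr1 were also among the 15 leading genes of this comparison. Cdh18, a type II cadherin, was the most abundant of them at 4447 and 5175 CPM.

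Raised members of the fixed lists of neuronal function are given here as counts without a test, beside 2.28% raised over all 7939 genes. Of 9 kainate and delta receptor genes 2 were raised, Grik3 and its auxiliary subunit gene Neto2 (336 and 396 CPM). Of 7 metabotropic glutamate receptor genes 6 had at least 20 UMIs and 2 were raised, Grm3 at 707 and 618 CPM and Grm8 at 1109 and 1125 CPM. No AMPA receptor gene of 14, NMDA receptor gene of 7 or GABA-A receptor gene of 13 was raised. Glra2, a glycine receptor subunit, was raised at 149 and 138 CPM. Of 27 potassium channel genes only Dpp10, an auxiliary subunit of Kv4 channels, was raised, at 18406 and 18554 CPM. No sodium, HCN or calcium channel gene of these lists was raised.

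Adhesion and guidance lists are counted in the same way, again beside 2.28% over all genes. Of 21 cadherin family genes 20 had at least 20 UMIs and 4 were raised: Cdh2, Cdh9, Cdh11 and Cdh18. Cdh11 stood at 918 and 890 CPM, 2.85-fold and 2.76-fold above the other neurons. Of 19 guidance ligands 4 were raised. Sema5b, a transmembrane semaphorin, was 4.58-fold and 8.4-fold higher at 139 and 231 CPM, and Slit1, a repellent ligand of Robo receptors, 2.91-fold and 3.26-fold higher at 163 and 259 CPM. Sema5a and Sema3e, a ligand of plexin D1, completed the set. Of 21 guidance receptors only Nrp1, a co-receptor for class 3 semaphorins, was raised, at 454 and 472 CPM. Lrrtm2 and Flrt2 were the raised members of 25 synapse organizers. Of 62 regional transcription factors 11 were raised. Beside those named above they included Sox5, a regulator of deep-layer neuron timing, at 1109 and 1223 CPM, Nfia at 519 and 272 CPM, and Tshz3 at 233 and 315 CPM.

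Markers of non-neuronal cells were near zero in most lists, and some differed between the libraries. The summed level of 9 endothelial markers was 19.5 and 1.62 CPM, with Mecom the most abundant and 6 members, among them Cldn5 and Pecam1, at 3 UMIs or fewer. The summed level of 8 pericyte markers was 21.2 and 4.05 CPM, with Atp13a5 the most abundant, and Pdgfrb, Kcnj8, Abcc9, Vtn and Higd1b at 3 UMIs or fewer. Of 6 markers of choroid plexus and ependyma, Ttr, the transthyretin gene, gave all counts, at 60.6 and 10.5 CPM, and the other 5 were at 0. Of 8 astrocyte markers Slc1a2, a glial glutamate transporter gene that some cortical neurons also transcribe, gave most of the summed 1055 and 979 CPM. Slc1a2 alone stood at 1016 and 924 CPM, while Aqp4, Gja1 and Gfap had 3 UMIs or fewer. The summed level of 6 oligodendrocyte precursor markers was 977 and 949 CPM, with Tnr the most abundant, and 7 oligodendrocyte markers summed to 30.5 and 41.4 CPM. The 6 microglia markers summed to 19.5 and 8.11 CPM.

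Across 11946 genes with at least 100 UMIs in the pooled neurons, Glut_11 was most like Glut_0. The Pearson correlation of log2(CPM + 10) was 0.957 and 0.947. The next values were 0.925 with GABA_9 and 0.924 with Glut_17 in the control library, and 0.91 with Glut_17 and 0.896 with GABA_9 in the CKO library. Clusters of a library share its preparation and depth, and the genes are not independent replicates.

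Glut_11 was not uniform. Reclustering the 1033 nuclei, with each gene centred within its library, gave 6 subclusters, numbered from 0 by size, and each held nuclei of both libraries. Subcluster 0 held 136 control and 172 CKO nuclei, subcluster 1 held 89 and 113, subcluster 2 held 82 and 97, subcluster 3 held 84 and 92, subcluster 4 held 56 and 56, and subcluster 5 held 23 and 33. Leading genes are given as the CPM ratio over the rest of Glut_11, and they defined the subclusters, so they are a description.

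In subclusters 0 and 1, 7 of the 8 layer 6 CT markers were raised, as they were in subcluster 3. Foxp2 stood at 1334 CPM in subcluster 0 and 1287 CPM in subcluster 1, against 253 CPM in subcluster 2 and 263 CPM in subcluster 4. Sulf1 was highest in subcluster 2, at 268 CPM, and Tle4 differed little between subclusters 1 and 2, at 980 and 967 CPM. Subcluster 0 was led by Cpa6, a carboxypeptidase, at 4.76-fold, followed by Sla, Trabd2b, Arhgap25 and Ndst1, an enzyme of heparan sulfate synthesis. No CT marker was among its 10 leading genes and Crym was, so it is named by number. Subcluster 1 was led by Gm34544 at 3.93-fold, Tmem196, Robo3, Cdh9 and Gm20646, and Syt6 was among its 10 leading genes at 3.07-fold, 417 CPM against 136 CPM. Subcluster 1 is therefore called layer 6 CT-like. The levels of the raised CT markers do not rank it above subcluster 0. Foxp2, Hs3st4, Sulf1 and Zfpm2 were higher in subcluster 0, and Tle4, Syt6 and Garnl3 were higher in subcluster 1.

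Subcluster 2 was layer 6b-like. Of 6 layer 6b markers 4 were raised, Ccn2, Moxd1, Nr4a2 and Tmem163, against 3 of the CT list. Ccn2 led it at 28.9-fold, with 88 of the 100 Ccn2 UMIs of the cluster, at 124 CPM against 4.31 CPM in the rest. The ratio was 30.1-fold in the control and 28.4-fold in the CKO nuclei. The CKO ratio rests on few counts, with 16 UMIs in subcluster 2, 1 in subcluster 3 and 1 in subcluster 4. Cplx3, a complexin, had 19 UMIs in subcluster 2, and Moxd1 stood at 67.8 CPM. Other leading genes were Fbxl7, an F-box protein gene, at 17-fold with 124 control UMIs and 1 CKO UMI, the noncoding RNA C130073E24Rik at 11.2-fold, Col19a1 at 10.5-fold and Kcnab1, a potassium channel beta subunit, at 8.97-fold.

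Subcluster 4 was layer 5/6 NP-like, with 6 of 7 NP markers raised. Tshz2, a zinc finger factor, stood at 4264 CPM against 164 CPM in the rest, a ratio of 26-fold, and 1829 of its 2332 UMIs in Glut_11 came from these 112 nuclei, 56 of each library. Grik1, a kainate receptor subunit, led the subcluster at 26.3-fold. Sntb1, Kcnip1 and Lypd1 followed at 22.9-fold, 19.1-fold and 16.4-fold. Vwc2l stood at 1324 CPM and Slc17a8, a further vesicular glutamate transporter, at 67.6 CPM. Slc17a7 stood at 93.3 CPM there. The CT genes Foxp2 and Syt6 were low there, and 2 of the CT list were raised, Tle4 and Hs3st4.

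Subclusters 3 and 5 are left without a name. In subcluster 3, 7 of 8 CT markers were raised, but its leading genes were others: Npas3 at 22.5-fold, Tafa1 at 18.5-fold, the RNA-binding protein gene Qk at 15.5-fold, Maml2 at 12-fold and Zbtb20 at 11.8-fold. These ratios differed between the libraries, at 10.2-fold and 53.1-fold for Qk, 10.1-fold and 101-fold for Maml2 and 10.1-fold and 24.4-fold for Zbtb20. They divide by few counts, above all in the CKO library. Qk had 122 and 107 UMIs in subcluster 3 and Maml2 102 and 34. The rest of Glut_11 held 51 UMIs of Qk and 39 of Maml2 over both libraries. Several of these are active in astrocytes or in interneurons, and Slc1a3, an astrocyte transporter gene, had 66 of its 70 Glut_11 UMIs there. The median depth of subcluster 3 was 5453 and 3053 UMIs, above the cluster's medians. The study had removed doublets before deposit, no further doublet call was made, and whether these nuclei are mixtures was not tested. Subcluster 5 was led by Nr4a2, an orphan nuclear receptor gene, at 9.14-fold and 518 CPM, with Adamts3, Rxfp1, Dzip1 and Rmst next, and 5 CT markers were raised in it.

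**Figure D2:**
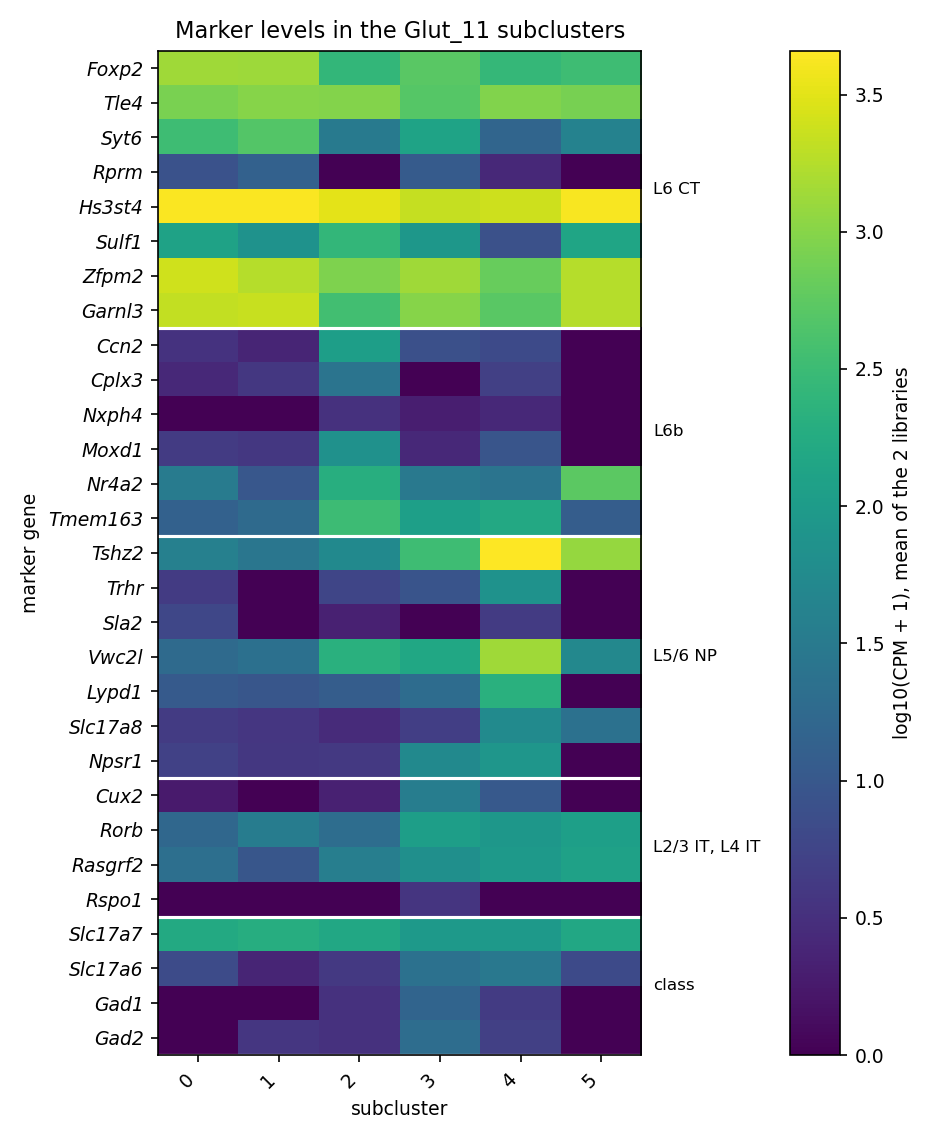
Levels of the same markers in the 6 subclusters of Glut_11, as log10(CPM + 1) averaged over the 2 libraries; rows are genes grouped by list and columns are subclusters 0 to 5. The layer 6b genes Ccn2 and Moxd1 are highest in subcluster 2 and the NP genes Tshz2 and Vwc2l in subcluster 4, while Hs3st4 and Tle4 are high in each column.

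The genotype comparison asked how Glut_11 neurons differed between the CKO and the control library. The targeted gene was too rare in these neurons to check the labels: Tgfbr1 had 13 and 2 UMIs, a ratio of 0.282 (0.0309 to 1.25). Tgfbr2, which encodes the partner receptor, had 0 UMIs in both. In ECs Tgfbr1 had 401 and 431 UMIs, 69.1 and 62.9 CPM, a ratio of 0.91 (0.792 to 1.05). The sources used here do not say whether the counted part of the gene includes the deleted exon. Of 20 genes of the TGF-beta pathway list 14 had at least 20 UMIs in Glut_11 and 10 had at least 100. Of those 10, 1 was at least 2-fold lower in the CKO library and none 2-fold higher, with a median log2 ratio of -0.22, beside 4.79% lower and 0.348% higher over all genes compared. The lower gene was Smad2, a signal transducer of the pathway, at 37.1 and 14.6 CPM. Acvr2a, an activin receptor gene, stood at 111 and 115 CPM, and Skil, an inhibitor of SMAD signaling, at 27.9 and 48.6 CPM. Acvr1 stood at 119 and 68.1 CPM, Bmpr1a at 75.6 and 48.6 CPM, Bmpr2 at 116 and 90.8 CPM and Bmpr1b at 97.3 and 102 CPM.

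Of 4027 genes with at least 100 UMIs over both libraries, 14 were at least 2-fold higher in the CKO library, 0.348%, and 193 were at least 2-fold lower, 4.79%. The median log2 ratio was -0.04. Because the control library held more UMIs, the filter on summed counts admits more genes that are high in control. With both libraries thinned to the same summed UMIs, 12 genes were higher and 83 lower among 3176. With only nuclei that held Y chromosome RNA and no Xist, 90 control and 256 CKO nuclei with median depths of 4932.5 and 2978 UMIs, 22 were higher and 10 lower among 1994, and with these nuclei also thinned to the same summed UMIs 12 were higher and 7 lower among 1515. The last setting was chosen after the values were seen. The excess of lower genes was thus not found among the male nuclei, which were fewer and gave fewer genes to compare. With 2 brains pooled per library and both sexes among control nuclei, the male control nuclei would come from a single brain.

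**Figure D3:**
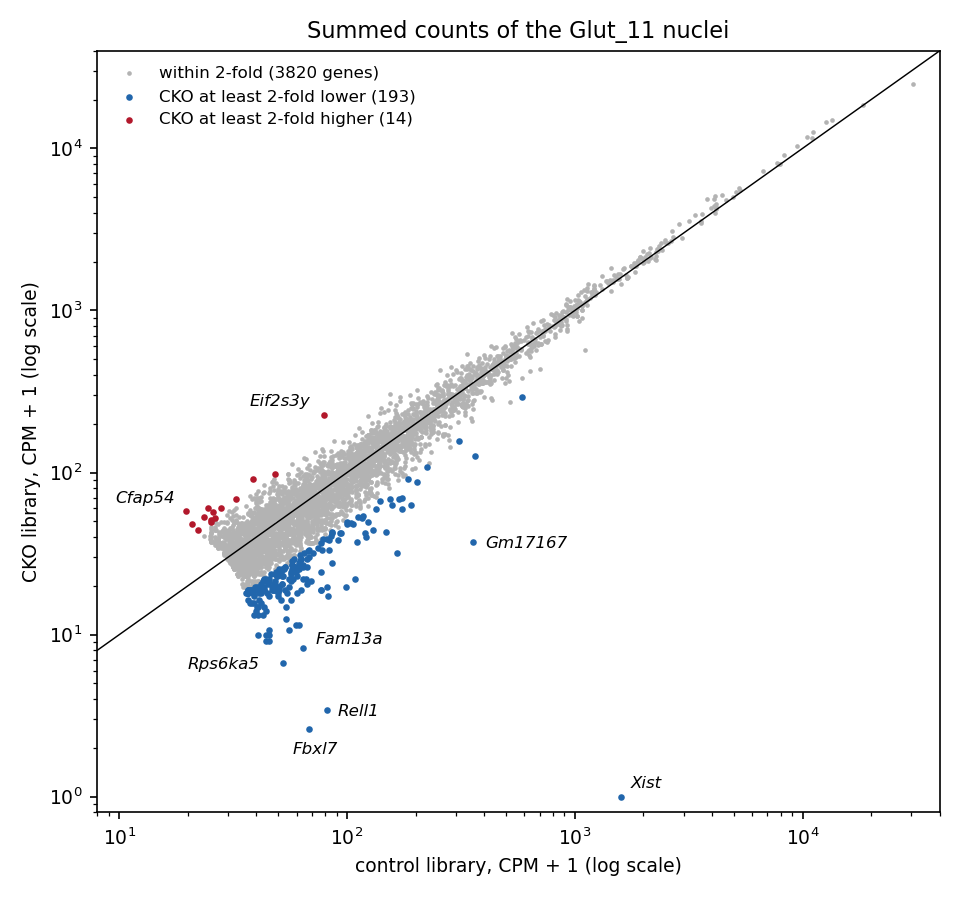
Summed CPM + 1 of each of 4027 genes in the Glut_11 nuclei of the control library (horizontal axis) and of the CKO library (vertical axis), both on log scales; the line marks equal levels. The 193 genes in blue are at least 2-fold lower and the 14 in red at least 2-fold higher in the CKO library, and Xist lies at 0 CPM in the CKO library.

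After Xist, the lowest ratios were those of Fbxl7 and Rell1. Fbxl7 had 152 and 2 UMIs, 67.2 and 1.62 CPM, a ratio of 0.0241 (0.0029 to 0.0887). Of its control UMIs, 124 came from the layer 6b-like subcluster 2, where the CKO nuclei had 1. Ccn2, the leading gene of that subcluster, was also lower there in the CKO library, with 72 and 16 UMIs, 165 and 58.9 CPM. The other layer 6b markers there went both ways. Cplx3 (34.3 and 14.7 CPM) and Tmem163 (346 and 298 CPM) were lower, and Moxd1 (57.2 and 84.7 CPM) and Nr4a2 (160 and 232 CPM) were higher. Rell1, a gene related to the TNF receptor family member RELT, had 183 and 3 UMIs, a ratio of 0.0301 (0.00614 to 0.0892), and its control UMIs were spread over the 6 subclusters, with 7 to 53 in each.

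Other genes with low ratios had more CKO counts. The noncoding RNA Gm17167 had 802 and 45 UMIs, a ratio of 0.103 (0.0744 to 0.139). Rps6ka5, which encodes the nuclear kinase MSK1, had a ratio of 0.111 (0.0435 to 0.235), and Fam13a a ratio of 0.115 (0.0517 to 0.225). Ttr followed at 0.174, Grk5, a kinase of G protein-coupled receptors, at 0.179, and Lrrc8c, a subunit of volume-regulated anion channels, at 0.181.

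The male nuclei gave the named low genes similar directions, with wider intervals. Within them Rell1 had 36 control and 3 CKO UMIs, a ratio of 0.0478 (0.00941 to 0.151), and Gm17167 a ratio of 0.0646 (0.04 to 0.0997). Fbxl7 had 8 and 2 UMIs, a ratio of 0.143 (0.0148 to 0.718). Fam13a had a ratio of 0.206 (0.0847 to 0.457). Ttr was the exception, with 7 and 11 UMIs and a ratio of 0.901 (0.319 to 2.74). Some named genes also differed within the control library between nuclei with Xist only and with Y chromosome RNA only. In that order, Fbxl7 stood at 65.5 and 17.3 CPM, Ttr at 70 and 15.2 CPM, Gnas at 24.1 and 2.17 CPM and Cfap54 at 23.3 and 6.5 CPM, whereas Rell1 stood at 85 and 78 CPM. In the ratios over all nuclei, genotype and sex make-up cannot be told apart. With 2 brains pooled per library and both sexes among control nuclei, each sex there would stand for a single brain. Sex and animal therefore cannot be told apart within the control library, nor genotype and animal among the male nuclei.

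The highest CKO ratios were nearer to 1 than the lowest, and among male nuclei some were larger and others smaller. Cfap54, a gene of motile cilia, had 42 and 70 UMIs, a ratio of 3.06 (2.06 to 4.59). Eif2s3y, a Y chromosome gene, had a ratio of 2.89 (2.39 to 3.51). It was among the genes that chose the male nuclei, so its ratio within them is not read. Actr1b, a dynactin subunit, followed at 2.53 (1.75 to 3.67) and Ahdc1 at 2.42 (1.81 to 3.24). Gnas, the stimulatory G protein alpha subunit gene, had a ratio of 2.36, Tmem169 of 2.3, Slc44a2 of 2.26, Mapk8ip1, a JNK scaffold, of 2.19, the proteasome subunit gene Psmb2 of 2.14 and Pou6f1 of 2.07. Within male nuclei the ratio was 12.2 (4 to 60.8) for Cfap54, from 3 and 64 UMIs, and 29.8 (5.12 to 1199) for Gnas, from 1 and 52 UMIs. It was 3.65 (1.92 to 7.64) for Psmb2 and 3.12 (1.52 to 7.22) for Mapk8ip1, but 1.96 (1.07 to 3.86) for Actr1b and 1.58 (0.793 to 3.35) for Tmem169. Among the other Y chromosome genes Uty had a ratio of 1.89 (1.43 to 2.5) and Kdm5d of 1.59 (1.01 to 2.5), and Ddx3y had 3 and 10 UMIs.

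The lowest genes were low in other Glut clusters too, which came from the same 2 libraries and so give no independent support. In the other Glut clusters pooled, the ratio was 0.231 (0.193 to 0.275) for Fbxl7, 0.166 (0.0989 to 0.263) for Rell1 and 0.223 (0.205 to 0.243) for Gm17167. It was 0.824 (0.739 to 0.918) for Lrrc8c. In those clusters Cfap54 had a ratio of 1.97 (1.83 to 2.13) and Psmb2 of 1.03 (0.954 to 1.12). With the libraries of each cluster thinned to 900000 UMIs, 59 genes of 2545 were 2-fold lower in Glut_11, 2.32%, 62 of 2456 in Glut_17, 2.52%, and 13 of 2563 in Glut_0, 0.507%.

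Many of the lower genes were abundant in ECs. Of the 193 lower genes, 153 had a higher CPM in the CKO ECs than in control Glut_11 nuclei, 79.3%, against 1356 of all 4027 genes, 33.7%. The same held for 7 of the 14 higher genes, 50%. The median CKO EC level was 137 CPM over the lower genes, 39.6 CPM over the higher genes and 41.4 CPM over all genes tested. Of 180 of the lower genes with enough counts in ECs, 49 had a CKO over control ratio below 1 there, 27.2%, against 3636 of all 9792 genes compared in ECs, 37.1%. The part of RNA from vascular cells, or of its removal from the counts, in these differences was not tested.

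Genotype differences past 2-fold in the gene lists are given as counts without a test, beside 0.348% higher and 4.79% lower over all genes. Of the 7 layer 6 CT markers with at least 100 UMIs none was past 2-fold in either direction, with a median log2 ratio of 0.15. The same held for the 11 AMPA receptor genes (median 0.19), the 16 cadherins (0.05) and the 18 guidance receptors (0.04) with that many counts. Lower genes were Kcnc1, 1 of 24 potassium channel genes, Efnb2, 1 of 12 guidance ligands, and Etv1 and Ebf1, 2 of 32 regional transcription factors, and none of these lists held a higher gene. Etv1, at 174 and 58.4 CPM, was also the lower gene of the layer 5 IT (1 of 4), piriform and amygdala (1 of 3) and cerebellar granule (1 of 2) lists. Reln, at 92.9 and 41.4 CPM, was the lower gene of both the Cajal-Retzius (1 of 1) and the mitral and tufted (1 of 2) lists. Ccn2 was the lower gene of 3 tested layer 6b markers, at 36.3 and 14.6 CPM. Nr4a1, an immediate early gene, stood at 46.9 and 90.8 CPM. Of 12 hypoxia and glycolysis genes 1 had 100 UMIs, Pdk1, at 37.1 and 26.8 CPM, and no interferon or heat shock gene had that many.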

How the data were processed

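Single-nucleus RNA was counted by the authors in PIPseq libraries: reads were aligned and counted with PIPseeker on a GRCm39 index per the methods, whereas the submitters' processing notes list mm10 and Seurat. CellBender removed background, SOLO and manual curation removed doublets, and clusters came from SCTransform values with RPCA integration. The deposited counts are integers, and the label of each nucleus is the authors'. Members and gene lists were chosen with earlier results of these data known. Counts were summed over the nuclei of a cluster and library and divided by their total (CPM). Ratios carry exact conditional binomial intervals, sums exact Poisson intervals and shares Clopper-Pearson intervals, at 95%. Subclusters used scanpy 1.11.5 at Leiden resolution 0.5. Alternatives included edgeR 4.0.16 TMM scaling. The ratio step was tested on simulated data. Of 26528 gene symbols 25234 matched GENCODE M39, the source of coordinates on GRCm39. Genes named were members of the fixed lists, the 15 highest ratios over the other Glut clusters and over all other nuclei, the 10 highest and 10 lowest genotype ratios among genes with at least 100 UMIs, Tgfbr1, Tgfbr2, Xist and Y chromosome genes, and the 5 leading genes per subcluster.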

Additional observations from a re-analysis of the deposited data

Results flagged for a closer look

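Of the 20 genes with the highest or lowest CKO over control ratio in Glut_11, 7 went the opposite way in ECs with both 95% intervals away from 1. Over all 9792 genes compared in ECs, 37.1% had a ratio below 1, so a ratio above 1 was the more common there. Fbxl7 had a ratio of 0.0241 in Glut_11 and 1.42 (1.36 to 1.48) in ECs. Rell1 had 0.0301 in Glut_11 and 1.41 (1.31 to 1.51) in ECs. Rps6ka5 had 0.111 and 3.37 (2.85 to 4.01), Fam13a 0.115 and 2.71 (2.56 to 2.87), Grk5 0.179 and 1.2 (1.12 to 1.28), and Lrrc8c 0.181 and 1.27 (1.18 to 1.36). Psmb2 had 2.14 in Glut_11 and 0.907 (0.83 to 0.991) in ECs. With 1 library per genotype the difference between the cell types was not tested, and the intervals cover counting error only.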

How the results depend on the processing

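No paired analysis was possible because each genotype had 1 library. Of 4027 genes 207 were past 2-fold between CKO and control, 14 higher and 193 lower. TMM scaling, median centring, deeper nuclei, subclusters 0 and 1 alone and leaving out subcluster 3 kept each count within 1.5 times; the last 2 were chosen after seeing the data and compared fewer genes, 1940 and 3308, so that the share lower was 8.97% and 7.89% against 4.79%. With at least 300 UMIs the counts were 26, 1 higher and 25 lower, and with at least 30 UMIs 892, 172 and 720, from fewer and more genes tested. With the mean of each nucleus' CPM they were 489, 64 and 425. With male nuclei only they were 32, 22 and 10, and with these thinned, chosen after seeing the data, 19 with 7 lower. With both libraries thinned to the same summed UMIs they were 95 with 83 lower. The cause of these shifts was not tested. The count of genes above the other Glut clusters, 172, was 33 against the highest of those clusters, 273 with equal weight per cluster and 106 with at least 300 UMIs. Of the 8 CT markers 4 were raised at a fold of 4, when no other regional list held any. At a fold of 1.5 the telencephalic excitatory list held as many raised members as the CT list, 7. Resolution 1 gave 11 subclusters. Spearman correlations with Glut_0 were 0.937 for control and 0.923 for CKO nuclei. The share of Glut_11 was 3.91% (control) and 4.71% (CKO) with nuclei of at least 1000 UMIs, and 5.71% and 6.73% among neurons. Ratios of the 20 genes named by ratio are given only where a gene met the UMI minimum of a setting. Settings that changed only this minimum repeat the main ratio, and TMM scaling and median centring rescale all genes alike. Agreement there was fixed beforehand, so the tally that follows is no measure of stability. Of 126 values, these settings included, 116 lay within the interval of the main value and none changed direction. The others were Cfap54 (1.68) and Eif2s3y (2.19) with the mean over nuclei, Rell1 (0), Fam13a (0.0509) and Lrrc8c (0.0849) without subcluster 3, Eif2s3y (2.2) in subclusters 0 and 1, and Gm17167 (0.0646, thinned 0.0588) and Eif2s3y (1.35, thinned 1.25) in male nuclei, which Eif2s3y helped to choose. Among male nuclei only Gm17167 and Eif2s3y met it, and below it the ratios of Fbxl7 (0.143), Ttr (0.901), Cfap54 (12.2), Gnas (29.8) and Psmb2 (3.65) lay outside their main intervals. Depth limits genes with few UMIs, of which Tgfbr1 is an example.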

Other observations

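Within subcluster 0, 75 of 1344 genes with at least 100 UMIs were at least 2-fold lower in the CKO library and 5 were higher. The counts were 23 lower and 7 higher of 779 in subcluster 1, 9 lower and none higher of 1132 in subcluster 2, 10 lower and 5 higher of 1357 in subcluster 3, 11 lower and 2 higher of 713 in subcluster 4, and 4 lower and 2 higher of 239 in subcluster 5. Between subclusters, Synpr, a synaptic vesicle gene, had 98 of its 146 Glut_11 UMIs in subcluster 3, and Nxph1, a neurexophilin gene of interneurons, stood at 464 CPM in subcluster 4 and 408 CPM in subcluster 3, against 26.6 CPM in subcluster 0. Nxph3, a neurexophilin gene, was 12.9-fold and 15.1-fold above the other neurons in Glut_11 with 32 control and 5 CKO UMIs. The nuclei came from 1 library per genotype, of different sex make-up, and from a preparation that enriches vessels, so these neurons are a by-catch whose share says nothing of their number in the brain.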
